A study of Mus musculus with 8 samples.

Results

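The genes described here are 10 immediate-early transcription factor genes of the EGR, FOS and JUN families, with Atf3 and Ier2, among the 38924 genes measured in mouse embryos. They were selected on measured values, the rise of Egr1 and Egr2 in diapaused inner cell mass, so levels there relative to ordinary inner cell mass are a description and carry no test. All 10 were found by symbol, each on a single line of the data. The 8 libraries formed 3 groups, all from C57BL/6 embryos and each library made from lysates of about 50 embryos. Diapaused inner cell mass (dICM, 3 libraries) came from blastocysts of females given tamoxifen and 0.5 mg of Depo Provera, a progestin, on day 3.5 and was collected 5 days later. Epiblast (Epi, 2 libraries) came from post-implantation embryos at day 6.5, and inner cell mass (ICM, 3 libraries) from blastocysts at day 3.5. No genetic change is named for any group. The trophectoderm was lysed with antibody and complement in incubations at body temperature, a step that the labels give for blastocysts. Removal of the zona with an acid solution is given for day 3.5 embryos, and the RNA was amplified before sequencing. In diapause the blastocyst pauses before it implants and can later resume. Here it differs from both other groups in hormone treatment and in days since fertilisation, which cannot be told apart from it. Since removal of the zona is given for day 3.5 embryos, dICM and ICM may differ in isolation too. That cannot be told apart from diapause either. Epi differs from both blastocyst groups in stage. Since the lysis step is given for blastocysts, Epi may differ in isolation too, and stage and isolation cannot be told apart there.

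Immediate-early genes are transcribed within minutes of a stimulus, with no new protein needed. Growth factors act on many of them through the ERK kinases, serum response factor (SRF) and its ETS-family partners, and stress acts through the JNK and p38 kinases and CREB/ATF factors. Their products are mostly DNA-binding proteins that pass the signal on: EGR proteins bind GC-rich sites through zinc fingers, and FOS and JUN proteins pair through leucine zippers to form AP-1. Since these mRNAs are short-lived and respond to handling, their level in a tissue reports its state up to the moment of lysis, isolation included.

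Promoters of Egr2, Fos and Jun, 1 of each family, are printed because they hold elements named for those signalling factors. The RefSeq table of build GRCm38.p6 held promoter windows for 7 of the 10 genes (Egr2, Fos, Fosb, Jun, Junb, Jund and Atf3), in 11 windows, of which 5 belong to alternative starts of Egr2. Each window runs from 250 bases before to 50 bases after an annotated transcript start. The part before the start is printed, 5′ to 3′ on the gene's strand, and capitals mark every motif match. The Egr2 stretches are chr10:67537316-67537565 (plus strand, start 2) and the 30 bases chr10:67537787-67537816 (plus strand, around the box of start 3, where capitals mark that box alone). The Fos stretch is chr12:85473640-85473889 (plus strand), and the Jun stretch is chr4:95052223-95052472 (minus strand).
Egr2 start 2: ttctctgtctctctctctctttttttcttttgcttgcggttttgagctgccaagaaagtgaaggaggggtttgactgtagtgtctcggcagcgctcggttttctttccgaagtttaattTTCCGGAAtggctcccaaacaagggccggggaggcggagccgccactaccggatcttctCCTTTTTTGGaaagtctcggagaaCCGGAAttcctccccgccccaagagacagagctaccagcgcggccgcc
Egr2 start 3: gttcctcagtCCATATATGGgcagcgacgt
Fos: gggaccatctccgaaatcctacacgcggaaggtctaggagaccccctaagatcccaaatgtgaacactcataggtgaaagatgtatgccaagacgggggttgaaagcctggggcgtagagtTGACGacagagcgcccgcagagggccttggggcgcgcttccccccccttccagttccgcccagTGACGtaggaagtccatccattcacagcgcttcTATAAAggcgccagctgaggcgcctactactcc
Jun: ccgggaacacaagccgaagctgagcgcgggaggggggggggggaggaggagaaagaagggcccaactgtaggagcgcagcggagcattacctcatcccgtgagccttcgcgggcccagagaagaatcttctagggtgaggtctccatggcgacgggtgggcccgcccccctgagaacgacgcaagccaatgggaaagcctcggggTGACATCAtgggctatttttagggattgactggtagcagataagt

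Egr2 held 2 separate CArG boxes, the element bound by SRF. The boxes lay at positions -72 to -63 of start 2 and at -72 to -63 of start 3, where the windows of the other two downstream starts hold it too. A CArG box occurred in 4 of the 11 windows of these genes, all of them Egr2 windows, and in 1.63% of all 32851 promoter windows of the table. CCGGAA, a core read by ETS factors, occurred at 3 places in the start 2 window of Egr2 (the pair on opposite strands at -131 to -124 overlap) and in 14.9% of all windows. Fos held the half-site TGACG, the shorter form of the CREB/ATF site, at -129 to -125 and at -66 to -62, and TATAAA at -33 to -28. TGACG occurred in 5 of the 7 genes and in 20.8% of all windows, and TATAAA in 2 of the 7 genes and 13.6% of windows. Jun held TGACATCA, a JUN/ATF element, at -45 to -38, and 3.62% of all windows hold it. Fosb held GCGNGGGCG, an EGR element, at -50 to -42, against 5.55% of all windows. The full CREB/ATF site TGACGTCA (1.79% of windows) and the AP-1 site TGANTCA (7.81% of windows) were in none of the 11 windows. Both strands were searched, and TGACG is contained in TGACGTCA. A match describes letters in a window and was not tested as a binding site.

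**Figure D1:**
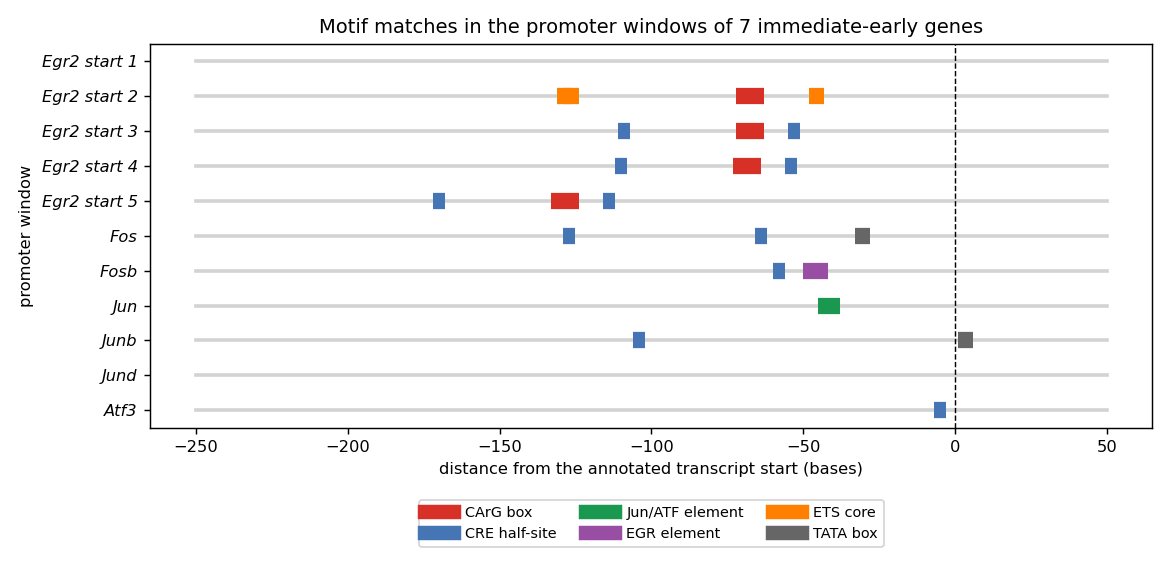
Motif matches (coloured blocks) by distance in bases from the annotated transcript start, for the 11 promoter windows of 7 genes. The CArG boxes sit in 4 Egr2 windows, and the CRE half-site TGACG is in windows of 5 genes.

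The deposited value of a gene in a library is an adjusted TPM, a transcript abundance per unit of length, and how it was adjusted is unknown here. Fold changes are differences of log2(adjusted TPM + 1), given with the standard error (SE) of the limma fit; the pseudocount of 1 shrinks the fold changes of genes near or below 1. Of the 10 genes, 8 reached 1 in at least 2 libraries and were tested. Egr3 reached it in 1 library and Junb in 0, so neither was tested. Egr2, Fosb and Atf3 passed through dICM libraries alone.

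Egr1 and Egr2 were the abundant members of the set in dICM. Egr1, the best known growth factor and ERK reporter of the family, had 179.0, 134.3 and 164.6 adjusted TPM in the dICM libraries, 1.40 and 0.386 in the Epi libraries, and 3.87, 20.1 and 5.28 in the ICM libraries. The groups did not overlap, and their order from high to low was dICM, ICM, Epi. The means were 159 ± 22.9 in dICM (SD, n = 3), 0.891 ± 0.714 in Epi (SD, n = 2) and 9.76 ± 9.003 in ICM (SD, n = 3), a ratio of means of 16.3 for dICM over ICM. On the log2 scale Egr1 was higher in dICM than in ICM by 4.20 ± 0.50 (4.85 without ICM replicate 2) and higher in dICM than in Epi by 6.45 ± 0.56. Within each library's ranking of all genes, Egr1 stood at rank 848 to 1012 in dICM, 13816 to 17904 in Epi and 3408 to 8249 in ICM.

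The comparison of Epi with ICM holds no dICM library, but it shares the ICM libraries with the contrast that chose the genes. In Epi, Egr1 fell by 2.25 on the log2 scale relative to ICM (SE 0.56, limma adjusted p = 0.0172). The adjusted p was 0.0669 without Epi replicate 1, 0.137 without Epi replicate 2 and 0.088 with no filter on low values, so the call rests on both Epi libraries and on the filter. ICM replicate 2, at 20.1, set the wide spread of the ICM group. Without it the fall was 1.60 (adjusted p = 0.0111).

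Egr2, also known as Krox20 and needed in the hindbrain and in myelinating Schwann cells, had 57.8, 59.0 and 49.4 adjusted TPM in dICM, 0.0563 and 0.0333 in Epi, and 0.229, 0.0919 and 0.0668 in ICM. Every dICM library was between 49.4 and 59.0, and the highest value outside dICM was 0.229, in ICM replicate 1. The log2 difference was 5.64 ± 0.18 for dICM against ICM and 5.75 ± 0.21 for dICM against Epi. Its SE was the smallest of the 8 tested genes in these comparisons. Epi and ICM differed by -0.11 ± 0.21 (limma adjusted p = 0.714), which at levels this low says little. The ratio of means over ICM is not given because the ICM level, below 0.3, has no known read support.

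Egr3, an EGR gene of muscle spindles and lymphocytes, had 2.64, 0.351 and 0.813 adjusted TPM in dICM, 0.0259 and 0.0135 in Epi, and 0.000876, 0.000292 and 0.00495 in ICM. All 3 dICM libraries were above all others, and dICM replicate 1 was the only library above 1. With no filter on low values, Egr3 differed by 1.02 ± 0.39 between dICM and Epi (adjusted p = 0.172). Shares within the EGR family restate the levels of Egr1 and Egr2, for which the genes were chosen. Outside dICM they rest on Egr2 levels of at most 0.229. Egr2 made up 23.0% to 30.5% of the summed Egr1, Egr2 and Egr3 level in dICM, 3.81% to 7.70% in Epi and 0.455% to 5.59% in ICM. Of the other EGR-related genes, Egr4 and Wt1 were under 1 in every library. The corepressor Nab2 had a mean of 1.22 ± 1.01 in dICM (SD, n = 3), 0.275 ± 0.159 in Epi (SD, n = 2) and 0.288 ± 0.121 in ICM (SD, n = 3) and was not tested. The corepressor Nab1, the only one of these 4 genes tested, differed by 0.27 ± 0.42 between dICM and ICM (adjusted p = 0.753).

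**Figure D2:**
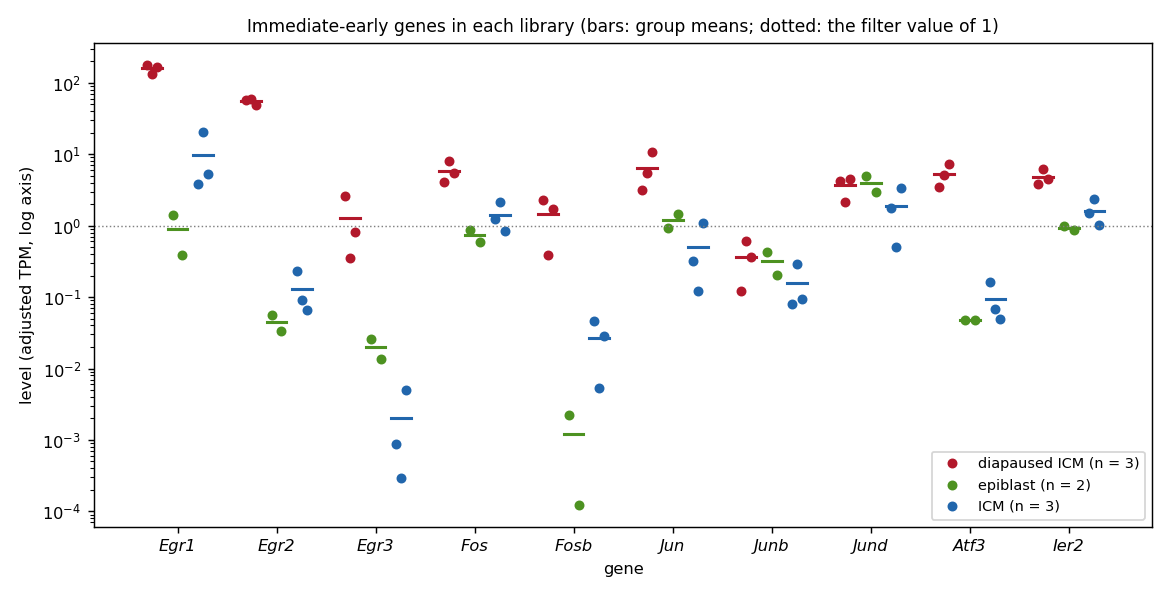
Adjusted TPM on a log axis for the 10 genes in each library, with dICM in red, Epi in green and ICM in blue; points are libraries, short bars are group means and the dotted line is the filter value of 1. In 8 of the 10 genes all 3 dICM libraries lie above all other libraries, with Junb and Jund the exceptions. Egr1 and Egr2 were chosen for this rise. Of all tested genes, 16.4% had dICM wholly above ICM and 27.3% had dICM wholly above Epi. The share of all genes above both was not computed, so the 8 are given as a description. Among them Egr3 was not tested, and Egr2, Fosb and Atf3 passed the filter through dICM alone.

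In dICM the FOS genes were far lower than Egr1 and Egr2. Fos, the inducible partner of JUN in AP-1, had 4.14, 7.97 and 5.48 adjusted TPM in dICM, 0.872 and 0.584 in Epi, and 1.24, 2.16 and 0.848 in ICM. The dICM libraries were above all others, and Epi overlapped ICM. The difference from ICM was 1.50 ± 0.28. Between dICM and Epi, a comparison that shares the dICM libraries used to select the genes, Fos differed by 1.96 ± 0.32 (limma adjusted p = 0.00215). Between Epi and ICM it differed by -0.45 ± 0.32 (adjusted p = 0.313).

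Fosb, a FOS relative best known from stimulated neurons, had 2.28, 0.394 and 1.71 in dICM, 0.00227 and 0.000124 in Epi, and 0.0459, 0.00538 and 0.0287 in ICM. The groups did not overlap, but dICM replicate 2 was below 1, and the dICM libraries differed among themselves 5.78-fold from highest to lowest. The difference was 1.17 ± 0.35 for dICM against ICM and 1.21 ± 0.39 for dICM against Epi, both without a test, since Fosb passed the filter through dICM alone. Fosb made up 4.71% to 35.5% of the summed Fos and Fosb level in dICM, at most 0.259% in Epi and 0.248% to 3.58% in ICM.

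The JUN genes differed among themselves. Jun, the founding JUN protein and a target of JNK, had 3.14, 5.44 and 10.7 adjusted TPM in dICM, 0.930 and 1.45 in Epi, and 0.322, 0.122 and 1.08 in ICM. The dICM libraries were above all others, while Epi and ICM overlapped. The difference was 2.22 ± 0.39 for dICM against ICM and 1.64 ± 0.44 for dICM against Epi (adjusted p = 0.0198). The second of these missed the threshold without Epi replicate 1 (0.132), without Epi replicate 2 (0.0757) and with no filter (0.0915). Between Epi and ICM, Jun differed by 0.58 ± 0.44 (adjusted p = 0.349).

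Jund, the family member that is usually present without a stimulus, had 4.27, 2.17 and 4.51 in dICM, 4.90 and 2.95 in Epi, and 1.78, 0.496 and 3.39 in ICM. All 3 groups overlapped. Jund differed by 0.78 ± 0.40 for dICM against ICM, by -0.10 ± 0.45 for dICM against Epi (adjusted p = 0.887) and by 0.88 ± 0.45 for Epi against ICM (adjusted p = 0.173). Junb, which can oppose Jun at AP-1 sites, had 0.121, 0.616 and 0.361 in dICM, 0.426 and 0.205 in Epi, and 0.0812, 0.291 and 0.0950 in ICM. It stayed below 1 in all 8 libraries and its groups overlapped. Jun made up 41.7% to 68.7% of the summed Jun, Junb and Jund level in dICM, 14.9% to 31.4% in Epi and 13.4% to 23.6% in ICM. The share of Jund was 26.4% to 56.7% in dICM, 64.1% to 78.3% in Epi and 54.5% to 81.5% in ICM, so that in dICM replicate 1 Jund was still the larger part.

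**Figure D3:**
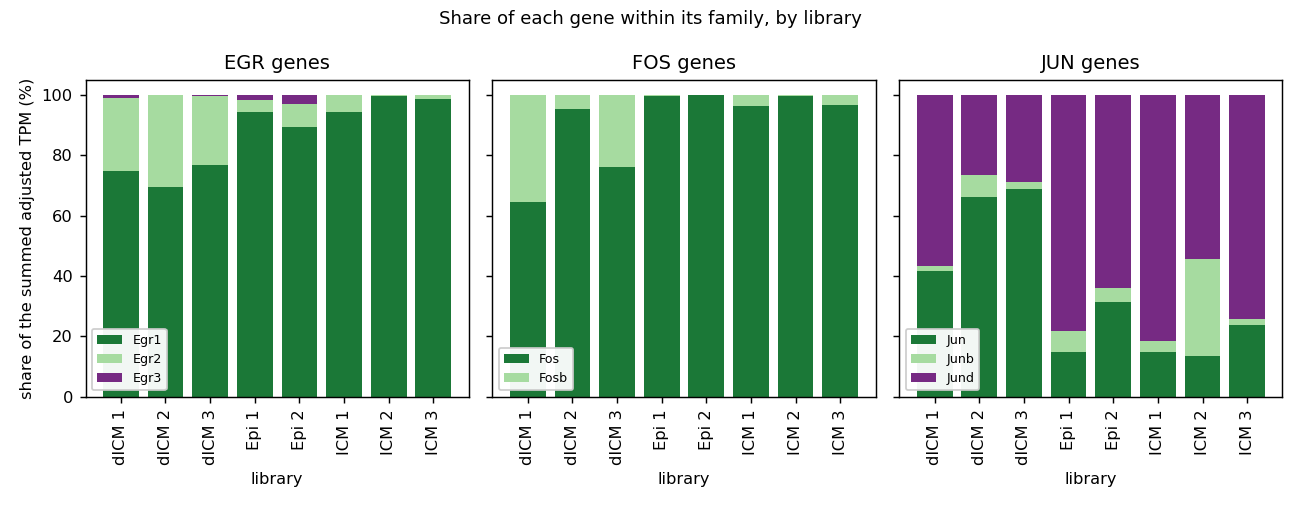
Share in percent of each gene in the summed adjusted TPM of its family, per library, with dICM left of Epi and ICM; bars stack to 100. Egr2 takes 23.0% to 30.5% of the EGR sum in dICM and at most 7.70% elsewhere. Jun takes 41.7% to 68.7% of the JUN sum in dICM and at most 31.4% elsewhere. The EGR shares restate the rise for which the genes were chosen, and Egr2 is at most 0.229 adjusted TPM outside dICM.

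Atf3, a stress-induced member of the CREB/ATF family that often represses its targets, had 3.43, 5.16 and 7.21 adjusted TPM in dICM, 0.0483 and 0.0482 in Epi, and 0.162, 0.0681 and 0.0495 in ICM. The dICM libraries were above all others. The difference was 2.48 ± 0.27 for dICM against ICM and 2.53 ± 0.30 for dICM against Epi. Both stand without a test, since Atf3 passed the filter through dICM alone. Epi and ICM differed by -0.06 ± 0.30 (adjusted p = 0.900), with levels under 0.2 in both. Ier2, a small nuclear immediate-early protein, had 3.78, 6.25 and 4.46 in dICM, 0.976 and 0.855 in Epi, and 1.48, 2.37 and 1.01 in ICM. Its dICM libraries were also above all others, and both Epi libraries lay below the ICM libraries. Ier2 differed by 1.16 ± 0.26 for dICM against ICM, by 1.58 ± 0.29 for dICM against Epi (adjusted p = 0.00378) and by -0.42 ± 0.29 for Epi against ICM (adjusted p = 0.304).

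Counted together, 6 of the 8 tested genes passed the threshold upward and 0 downward for dICM against ICM, the contrast used to choose them, where 7.52% of all tested genes passed upward and 5.81% downward (with no filter on low values, 3 passed upward). Fosb and Jund were the genes that did not pass. For dICM against Epi, 7 of 8 passed upward, or 5 of the 6 besides Egr1 and Egr2, beside 16.0% of all genes upward and 18.6% downward; Egr2, Fosb and Atf3, admitted through dICM alone, are among the 7, and the Fosb call was lost in 10 of 14 alternative settings. For Epi against ICM, 0 passed upward and Egr1 alone passed downward, beside 16.7% and 13.3% of all genes. At an unadjusted p under 0.05 limma also gave 0 downward for dICM against ICM and 0 upward for Epi against ICM, and with a replicate block Jund passed upward for Epi against ICM. Of all calls for dICM against ICM 56.4% were upward, and 42.7% when libraries were rescaled without the 43 most abundant genes; for Epi against ICM the shares were 55.7% and 43.2%. The dICM libraries lay wholly above ICM for 7 of the 8 tested genes (16.4% of all genes did) and wholly above Epi for 7 of 8 (27.3%). Epi lay wholly below ICM for 5 of 8 (25.0%) and wholly above it for 0 of 8 (33.9%). Of those 5, Egr2, Fosb and Atf3 were below 1 in every Epi and ICM library. The 5 are therefore not evidence of a fall of the set in Epi. The genes were chosen for the rise of Egr1 and Egr2 in dICM, and 3 of the 8 passed the filter through dICM alone. The counts and medians with dICM are therefore a description and not evidence about the set. The median log2 difference of the 8 was 1.86 for dICM against ICM, 1.80 for dICM against Epi and -0.08 for Epi against ICM, beside 0.004, -0.11 and 0.14 for all tested genes.

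**Figure D4:**
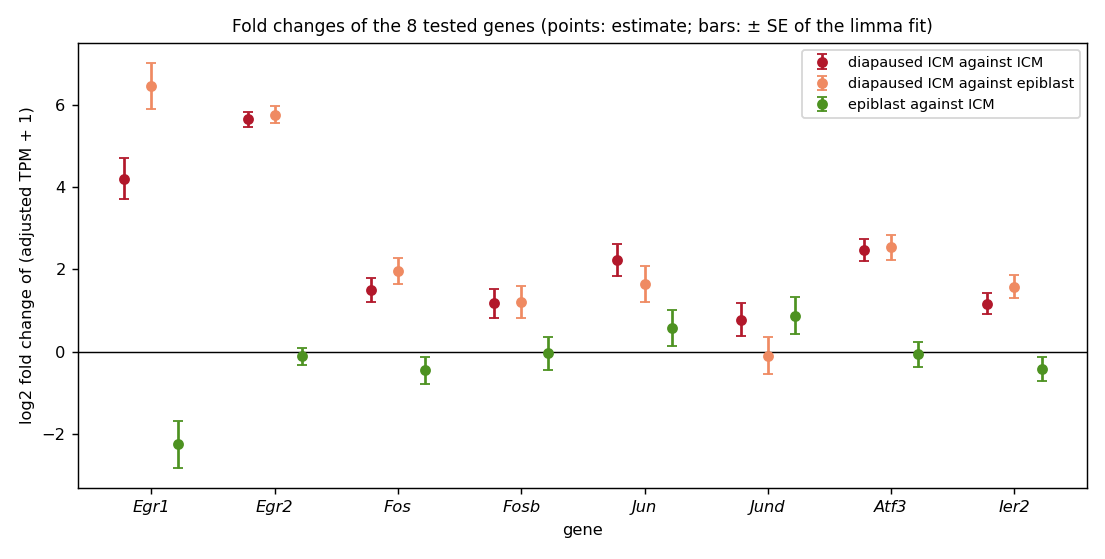
Log2 fold changes of (adjusted TPM + 1) for the 8 tested genes in 3 comparisons; points are estimates and bars are ± SE of the limma fit. Egr1 and Egr2 lie between 4.20 and 6.45 in both comparisons with dICM, and Egr1 is the only gene clearly below 0 for Epi against ICM (-2.25).

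The genes did not peak in the same dICM library. Egr1, Egr3 and Fosb were highest in dICM replicate 1, Egr2, Fos, Junb and Ier2 in replicate 2, and Jun, Jund and Atf3 in replicate 3. Egr2 varied least, 1.19-fold from highest to lowest dICM library, followed by Egr1 at 1.33-fold, and Egr3 most, at 7.51-fold. In ICM, replicate 2 was highest for Egr1, Fos, Junb and Ier2, replicate 1 for Egr2, Fosb and Atf3, and replicate 3 for Egr3, Jun and Jund. In Epi, replicate 1 was highest for 9 genes and replicate 2 for Jun. Egr1 and Egr2 together made up 85.9% to 90.9% of the summed level of the 10 genes in dICM, 6.43% to 15.1% in Epi and 44.5% to 78.6% in ICM. That sum ran from 221.6 to 260.6 adjusted TPM in dICM, from 6.52 to 9.64 in Epi and from 9.21 to 25.7 in ICM.

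The tests on log2(value + 1) shrink the genes that were near 0 outside dICM. With a pseudocount of 0.1 the difference of dICM from ICM was 7.98 for Egr2, 4.78 for Atf3, 3.59 for Jun and 3.36 for Fosb. These rest on ICM levels of at most 0.229 for Egr2, 0.162 for Atf3, 1.08 for Jun and 0.0459 for Fosb. Such levels have no known read support, so the size of these differences is uncertain. By Pearson's r over the 8 libraries, the genes most like Egr1 were Hspg2, the basement membrane proteoglycan perlecan (r = 0.990), Dst (0.987), Etl4 (0.984), Ddrgk1 (0.981) and Ubash3b (0.980). Hspg2 had a mean of 27.8 ± 2.28 adjusted TPM in dICM, 0.439 ± 0.0519 in Epi and 3.77 ± 2.64 in ICM (SD). Those most like Egr2 were F2r, the thrombin receptor (r = 0.997), Ciz1 (0.993), Myo7a (0.992), Tpt1-ps6 (0.989) and Tpt1 (0.989). F2r had a mean of 84.4 ± 7.90 in dICM, 8.36 ± 1.26 in Epi and 9.28 ± 0.462 in ICM (SD). Tpt1 and its pseudogene can share reads, so their values are uncertain. With 3 groups behind 8 libraries, such values mainly restate the order of the group means, and they are given as a description.

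Genes that share signals with the set were read from lists. Of 39 other immediate-early genes, 34 were tested, and 10 were higher and 0 lower in dICM than in ICM, beside 7.52% and 5.81% of all genes. The median was 0.71 (0.004 for all genes). At an unadjusted p under 0.05 limma gave 18 higher and 0 lower. Nr4a1 and Per1 passed the filter through dICM alone, so that 8 of the 10 calls concern genes that passed without it. The 4 with the smallest adjusted p were Nr4a1, an orphan nuclear receptor, Zfp36l1, an mRNA-decay factor, Bhlhe40, a transcriptional repressor of the clock, and Btg2, an antiproliferative protein. Nr4a1 had 3.61, 5.12 and 6.23 adjusted TPM in dICM and 0.150, 0.176 and 0.345 in ICM, a difference of 2.27 ± 0.24 that carries no test for that reason. Zfp36l1 had 28.1, 28.3 and 28.3 in dICM and 7.05, 8.34 and 9.24 in ICM, a rise of 1.67 ± 0.22 (adjusted p = 0.00168). Bhlhe40 rose by 2.29 ± 0.30 (adjusted p = 0.00171) and Btg2 by 2.04 ± 0.29 (adjusted p = 0.00232). The calls of Zfp36l1, Bhlhe40 and Btg2 held in all 14 alternative settings. Other calls among the 10 were lost in up to 10 of the 14. Without the filter on low values, 6 of the 34 passed in place of 10. Without ICM replicate 1, dICM replicate 2 or dICM replicate 3, 7 passed. Klf4, Dusp1 and Myc had differences of 0.69 ± 0.26, 0.90 ± 0.33 and 0.90 ± 0.38 and did not pass (adjusted p = 0.118, 0.111 and 0.165).

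Against Epi, 22 of these 34 genes (20 without Nr4a1 and Per1) were higher and 2 lower in dICM, beside 16.0% and 18.6% of all genes, with a median of 1.35 (-0.11 for all genes). Klf4 had 24.0, 38.4 and 36.3 adjusted TPM in dICM and 0.930 and 0.509 in Epi, a rise of 4.29 ± 0.29 (adjusted p = 3.4e-05). Zfp36l1, Bhlhe40 and Btg2 rose by 2.65 ± 0.25, 3.09 ± 0.34 and 2.90 ± 0.32 (adjusted p = 0.00016, 0.000317 and 0.000329). The 2 that were lower were Zfp36l2 and Ier5, and Ier5 passed the filter only with the Epi libraries. For Epi against ICM, 3 (2 without Ier5) were higher and 11 lower, beside 16.7% and 13.3% of all genes, with a median of -0.55 (0.14 for all genes). Klf4 fell by 3.59 (SE 0.29, adjusted p = 5.84e-05), Ctgf by 2.34 (SE 0.24, adjusted p = 0.000241) and Cyr61 by 2.72 (SE 0.39, adjusted p = 0.00129); Ctgf and Cyr61 encode secreted matrix-associated proteins. Zfp36l2 rose by 3.02 ± 0.42 (adjusted p = 0.00124). Of 9 naive epiblast markers, 8 were also lower in Epi than in ICM. Whether the fall of Klf4 belongs to that change of stage was not tested. Without Epi replicate 2, 5 of the 34 genes were lower in place of 11, and without Epi replicate 1, 1 was higher in place of 3. For dICM against Epi, 1 was lower without Epi replicate 1, in place of 2.

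**Figure D5:**
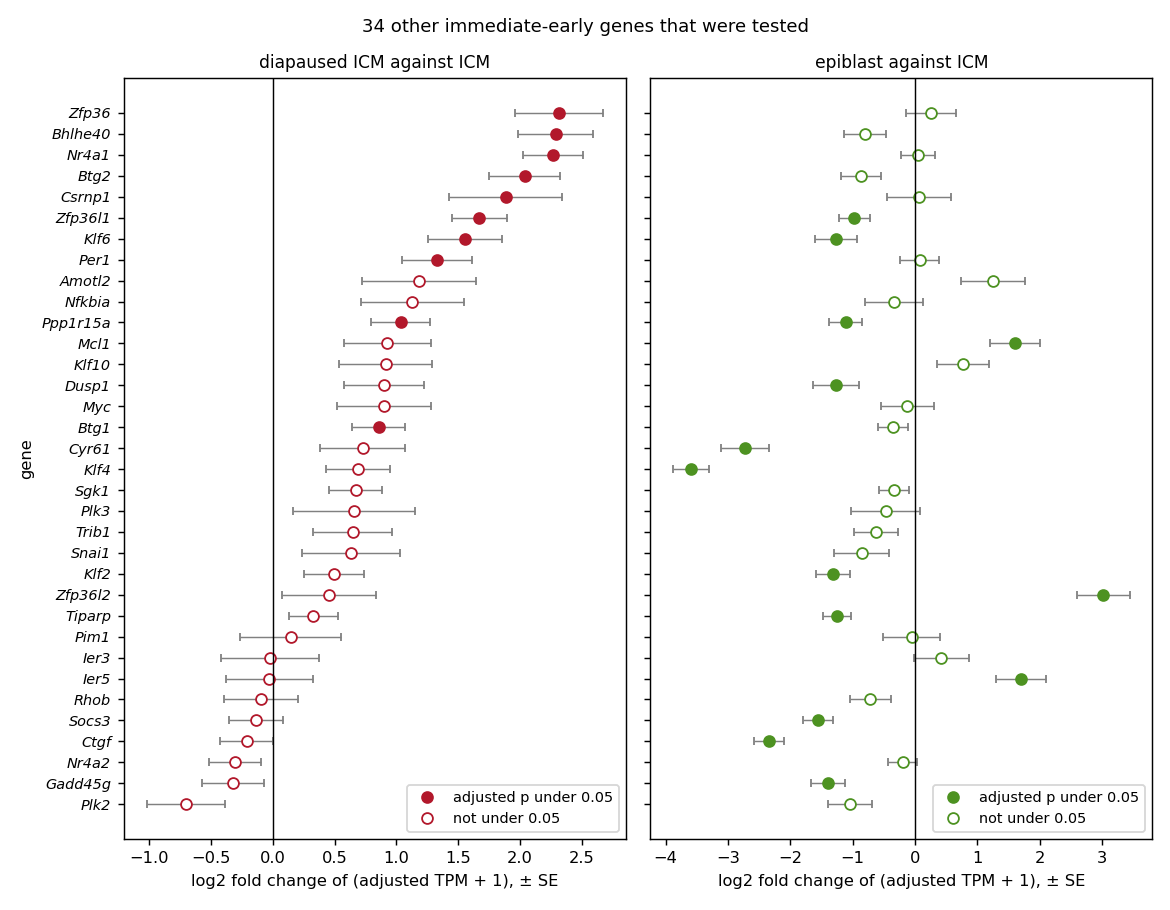
Log2 fold changes of (adjusted TPM + 1) with ± SE for the 34 tested genes of the list of other immediate-early genes, for dICM against ICM (left, red) and Epi against ICM (right, green); filled points have an adjusted p under 0.05. On the left 10 points are filled, all to the right of 0, and on the right 3 are filled above 0 and 11 below.

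Of 11 other AP-1 and small MAF genes, 5 were tested. For dICM against ICM 2 were higher and 0 lower, beside 7.52% and 5.81% of all genes. For dICM against Epi 3 were higher and 0 lower, beside 16.0% and 18.6%. For Epi against ICM 0 were higher and 1 lower, beside 16.7% and 13.3%. Atf2 and Atf7 were tested and passed in no comparison. Maff and Mafk, small MAF proteins that pair with other leucine zipper factors, were higher in dICM than in ICM. Maff had 10.5, 16.8 and 24.8 adjusted TPM in dICM and 2.96, 1.12 and 3.25 in ICM, a rise of 2.40 ± 0.35 (adjusted p = 0.00292). Mafk rose by 1.61 ± 0.33 (adjusted p = 0.0136), a call lost without ICM replicate 1 or with no filter. Against Epi, Maff, Mafg and Mafk were higher in dICM, by 2.40 ± 0.40, 1.43 ± 0.36 and 2.34 ± 0.37 (adjusted p = 0.00231, 0.0153 and 0.00184). The Mafg call was lost without either Epi library and with no filter. Mafg fell by 1.56 in Epi relative to ICM (SE 0.36, adjusted p = 0.0122), and that call was lost without either Epi library.

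The ERK-responsive feedback genes gave a mixed picture. All 12 were tested, and 2 were higher and 0 lower in dICM than in ICM by limma's adjusted p (3 and 1 at an unadjusted p under 0.05), beside 7.52% and 5.81% of all genes. Spry4, an inhibitor of receptor tyrosine kinase signalling, had 23.8, 16.6 and 26.9 adjusted TPM in dICM, 9.33 and 8.28 in Epi, and 3.12, 3.76 and 4.003 in ICM, with a rise of 2.32 ± 0.23 over ICM (adjusted p = 0.000403). Dusp5, a nuclear ERK phosphatase, differed by 2.05 ± 0.31, with no test because it passed the filter only with the dICM libraries; it is the other of the 2 calls. Dusp6, the cytoplasmic ERK phosphatase, had 4.20, 2.21 and 2.94 in dICM, 20.0 and 16.0 in Epi, and 3.45, 2.81 and 4.34 in ICM. It rose by 2.08 ± 0.27 in Epi over ICM (adjusted p = 0.000882), while in dICM it differed from ICM by -0.15 ± 0.24 (adjusted p = 0.753). Epi against ICM gave 4 higher and 2 lower, beside 16.7% and 13.3% of all genes, and 2 and 0 without either Epi library; 1 was lower without ICM replicate 2 or ICM replicate 3. For dICM against Epi 4 were higher and 2 lower, beside 16.0% and 18.6% of all genes; 2 were higher without Epi replicate 1 and 1 without Epi replicate 2. Spred3, among the 4 higher in Epi, differed from ICM by 2.15 ± 0.29, with no test because it passed the filter through Epi alone.

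Of 21 ERK kinases and SRF, TCF and CREB factors, 19 were tested, and 3 were higher in dICM than in ICM, beside 7.52% of all genes. Srf had 14.4, 12.2 and 21.0 adjusted TPM in dICM and 8.10, 3.82 and 8.45 in ICM, a rise of 1.15 ± 0.31 (adjusted p = 0.0419) that was lost in 11 of 14 alternative settings, each of the 8 settings without a library among them. Araf rose by 1.01 ± 0.23 (adjusted p = 0.021), lost without dICM replicate 1, ICM replicate 2 or ICM replicate 3 and with no filter. Rps6ka2, a kinase downstream of ERK, rose by 1.21 ± 0.32 (adjusted p = 0.0389), lost in 10 of 14 settings. With no filter, or without dICM replicate 1, ICM replicate 2 or ICM replicate 3, 0 of the 19 passed, and without each other library 1 or 2 did. For Epi against ICM 2 were higher and 3 lower, beside 16.7% and 13.3% of all genes; the 2 became 1 without Epi replicate 1, Epi replicate 2, ICM replicate 1 or ICM replicate 2, and the 3, of which Crem passed the filter only with the ICM libraries, became 2 without Epi replicate 1, Epi replicate 2 or ICM replicate 3. For dICM against Epi 5 were higher and 5 lower, beside 16.0% and 18.6% of all genes. Leaving out each library in turn gave 3 to 6 higher and 0 to 4 lower, with 0 lower without dICM replicate 2 or Epi replicate 1; Elk3, 1 of the 5 higher genes, passed the filter only with the dICM libraries. Of 13 JNK and p38 kinases, 9 were tested, and 0 passed limma's adjusted threshold in either direction for dICM against ICM, while 3 were higher and 0 lower at an unadjusted p under 0.05; the background was 7.52% and 5.81% of all genes, and 1 was higher with a replicate block. Epi against ICM gave 1 higher and 3 lower, beside 16.7% and 13.3% of all genes, and 0 lower without either Epi library or with no filter; without ICM replicate 2 or ICM replicate 3, 1 was lower. For dICM against Epi 3 were higher and 1 lower, beside 16.0% and 18.6% of all genes, and 1 and 0 without Epi replicate 1. Mapk8, the gene of JNK1, rose by 2.21 ± 0.27 in Epi over ICM (adjusted p = 0.000638).

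Heat shock and ubiquitin genes, which also respond to handling, differed in both directions. All 15 were tested, and 1 was higher and 3 lower in dICM than in ICM, with a median of -0.51, beside 7.52% and 5.81% of all genes; without dICM replicate 1 the counts were 2 and 2, and 5 were lower after quantile normalization and 6 after rescaling without abundant genes. Hspb1, a small heat shock protein, had 49.9, 30.9 and 43.0 adjusted TPM in dICM and 3.49, 4.94 and 7.67 in ICM, a rise of 2.76 ± 0.30 (adjusted p = 0.000662). The chaperones Dnaja1, Hsph1 and Hspa8 fell by 2.02, 1.19 and 1.02 (SE 0.27, 0.23 and 0.21; adjusted p = 0.00168, 0.0112 and 0.0143), the last lost without dICM replicate 1 (and with no filter). Hspa1a, an inducible heat shock gene, had 0.711, 1.90 and 2.05 in dICM and 0.173, 0.0753 and 0.230 in ICM, a difference of 1.10 ± 0.35 with no test, since it passed the filter only with the dICM libraries. Against Epi 3 were higher and 5 lower in dICM, beside 16.0% and 18.6% of all genes. Epi against ICM gave 4 higher and 4 lower, beside 16.7% and 13.3% of all genes. The higher count became 2 without Epi replicate 1, and the lower count 0 without Epi replicate 2, 1 without Epi replicate 1 or ICM replicate 1, 2 without ICM replicate 3 or dICM replicate 1, and 1 with a replicate block or with only the 2 groups compared; with no filter 2 were higher and 2 lower.

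Cell-type markers place the libraries. Of all tested genes, 7.52% were called higher and 5.81% lower for dICM against ICM. For Epi against ICM these shares were 16.7% and 13.3%. Naive epiblast markers had summed levels of 930.3 to 1305 in dICM, 272.7 to 349.5 in Epi and 1083 to 1580 in ICM, and 8 of 9 were lower in Epi than in ICM; 1 of 9, Tdgf1, was lower in dICM than in ICM. Post-implantation markers summed to 7.50 to 13.6 in dICM, 284.8 to 575.2 in Epi and 22.9 to 36.4 in ICM, and all 5 were higher in Epi than in ICM, 3 of them (Fgf5, Pou3f1 and Sox3) having passed the filter only with the Epi libraries. Primitive endoderm markers summed to 210.2 to 346.3 in dICM, 15.1 to 27.4 in Epi and 67.8 to 84.1 in ICM. This sum had the same group order as Egr1, but not every marker did. In Epi 6 of the 9 were lower than in ICM. Dab2 and Foxa2 had higher means in Epi (18.25 and 0.523) than in ICM (12.24 and 0.177), neither of them called. Of these 9, 5 (Gata4, Sox7, Dab2, Lama1 and Col4a1) were higher and Gata6 was lower in dICM than in ICM. Trophectoderm markers summed to 54.2 to 185.2 in dICM, 59.3 to 67.4 in Epi and 41.1 to 59.7 in ICM, and of 8 tested Gata3 was higher in dICM.
Of 12 immune markers, 3 were tested. Cd68 and Laptm5 were higher in dICM than in ICM, beside 7.52% of all genes. Itgam was higher in Epi than in ICM, beside 16.7%. The summed level was 48.7 to 135.6 in dICM, 6.49 to 39.7 in Epi and 5.44 to 11.2 in ICM. The other 9, Ptprc, Csf1r and Tyrobp among them, were under 1 in every library. Erythroid markers summed to at most 3.46, and all 9 uterine markers were under 1 in every library. Primitive streak markers were at most 0.310 in dICM, 14.1 to 15.8 in Epi and at most 0.430 in ICM as a sum. The part of primitive endoderm or any other cell type in the levels of the 10 genes was not tested, and in bulk samples fewer cells of a type and less RNA per cell cannot be told apart.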

How the data were processed

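Each deposited value is a gene's signal in a library, which the authors named adjusted TPM; how the adjustment was made is unknown here. Columns summed to 720674 to 1179026, so they were not handled as TPM proper, the unit assumed in the plan; the planned test was kept. The submitters' processing notes list Bowtie 0.12.5, DESeq (no version) and the build mm9. Read depth is unknown, so no counting interval is given. From these values, 17698 of 38924 genes had 1 or more in at least 2 libraries. limma 3.58.1 in R 4.3.3 was fitted to log2(value + 1) of all 8 libraries, with a mean per group and a trended prior, and tested two-sided with Benjamini-Hochberg adjustment over all 17698 genes and a threshold of 0.05. The script was tested on simulated data. Repeated symbols used the line of highest mean. Libraries are biological replicates per the labels' protocols. A named gene that needed the group where it is higher to pass the filter has no p printed for that difference, other than in counts. The members and lists were chosen with earlier results of these data known. All 10 members are named, with up to 4 genes of smallest adjusted p per list and comparison, and the 5 genes most like Egr1 and Egr2 that had a mean of at least 10 in 1 group; Dusp1, Myc, Hspa1a, Nab2, called markers and genes behind counts of 5 or fewer were added after their values were seen. Promoters came from RefSeq, build GRCm38.p6. Alternatives were another pseudocount, no filter, quantile normalization, rescaling, a replicate block, only the 2 groups compared, and leaving out each library.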

Additional observations from a re-analysis of the deposited data

How the results depend on the processing

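Among fold changes of tested members, Fosb and Atf3 for Epi against ICM turned to 0.022 and 0.035 with the replicate block, and Jund for dICM against Epi ran from -0.39 to 0.20 when a library was left out; the cause was not tested. With no filter on low values, 1278 genes were called for dICM against ICM in place of 2360, 3 members were higher in place of 6, 6 other immediate-early genes were higher in place of 10, and 0 members were lower for Epi against ICM in place of 1; more genes enter the adjustment there. Leaving out each library gave 1402 to 2141 genes for dICM against ICM (lowest without ICM replicate 1), 2008 to 5205 for Epi against ICM and 2698 to 6315 for dICM against Epi (both lowest without Epi replicate 1), against 5324 and 6113 with all. It gave 0 to 1 members lower for Epi against ICM, and for other immediate-early genes 1 to 4 higher and 5 to 15 lower for Epi against ICM and 1 to 2 lower for dICM against Epi. Same-number correlations of dICM with ICM were 0.017, 0.103 and 0.131, and different-number ones ran from -0.148 to 0.033. Whether replicate numbers pair the libraries cannot be settled from values this small. The replicate block called 2004, 4475 and 5314 genes for dICM against ICM, Epi against ICM and dICM against Epi, and 1 member higher for Epi against ICM, Jund (1.13, adjusted p = 0.0232), in place of 0. Rescaling without the 43 most abundant genes moved the median of all genes to -0.13 for dICM against ICM and to 0.01, against 0.14, for Epi against ICM. Where 1 Epi library was left, it was assumed to vary like the other groups. Epi has 2 libraries and read depth is unknown, which limits all values below about 1.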
